A study of Mus musculus with 12 samples.

Results

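The bitter taste receptor genes of the mouse were placed in maps of the nuclear periphery made from early embryos. The members are the 35 protein-coding genes with symbols starting Tas2r on chromosomes 1 to 19 of the GRCm38 annotation, of 20140 protein-coding genes in the mapped span, and 5 further Tas2r entries are pseudogenes and were left out. The rule uses no measured value. A gene was counted as LAD (in a lamina-associated domain) in a list when its midpoint lay in one of the list's intervals.

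Lamina contacts were mapped by DamID, in which the bacterial adenine methyltransferase Dam, here fused to lamin B1 and to an auxin-inducible degron (AID-Dam-LaminB1), methylates the adenine of GATC near the lamina. All embryos were of the cross (C57BL/6J xCBA) x DBA/2J, received 20 µM siRNA as zygotes at 17 to 18 h after hCG, and received mRNA for Tir1 (250 ng/µL), membrane-eGFP (100 ng/µL) and the Dam fusion (20 ng/µL) in both blastomeres of the late 2-cell embryo at 46 to 48 h, with 500 µM auxin until its removal. The 12 samples form 4 groups of 3 replicates: siControl and siRif1 at the 4-cell stage (auxin removed at 54 h, collected at 60 to 62 h) and siControl and siRif1 at the 8-cell stage (auxin removed at 66 h, collected at 72 to 74 h). Rif1 encodes a chromatin protein with a role in replication timing, and every group, controls included, carried the Dam fusion and an siRNA. Each replicate pooled 16 to 24 blastomeres, from 4 to 6 embryos at the 4-cell stage or 2 to 3 embryos at the 8-cell stage, so a list describes a mixture of cells. Per the series' design text, the authors made 1 LAD list per group from all 3 replicates. With 1 list a group there is neither an error between replicates nor a depth to give, so no test between groups was made. The 4 comparisons share lists with each other. The lists hold no RNA levels, so neither the knockdown nor the stage could be checked from marker genes.

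Bitter taste receptors are G protein-coupled receptors of type II taste cells and of some chemosensory cells in airway and gut. Bound by a bitter compound, they signal through gustducin (its alpha subunit is Gnat3), phospholipase C beta (Plcb2), the inositol trisphosphate receptor Itpr3 and the channel Trpm5, and ATP leaves the cell through a channel of Calhm1 and Calhm3. Most of these genes lack introns in the coding sequence and lie in clusters that grew by tandem duplication.

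Of the 35 genes, 33 lie on chromosome 6. With members up to 1 Mb apart taken as 1 cluster, there were 3 clusters and 3 single genes. Tas2r137, Tas2r108 and Tas2r138 lie at 40491238 to 40613310 of chromosome 6. Tas2r139, Tas2r144, Tas2r143, Tas2r135 and Tas2r126 lie at 42140936 to 42435461. The largest cluster holds 24 genes at 131629892 to 133055793, in a centromere-side block of 6 (Tas2r130, Tas2r107, Tas2r106, Tas2r104, Tas2r105 and Tas2r114, within 60.2 kb) and a telomere-side block of 18 (Tas2r120 to Tas2r140, within 399 kb), with 968 kb between the nearest members of the blocks. The single genes are Tas2r134 on chromosome 2 (51627511 to 51628407), Tas2r118 on chromosome 6 (23969161 to 23970060) and Tas2r119 on chromosome 15 (32177289 to 32178294). Many neighbouring members lie within 1 step of the 100-kb grid of the LAD lists, so members of a block are not independent observations. The 6 genes of the centromere-side block had 1 state in each list, and the telomere-side block was split in siRif1 8-cell embryos.

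The members are short, with a median annotated length of 936 bases (range 882 to 1044) against 17800 bases over all protein-coding genes. The lengths of 34 of the 35 (all but Tas2r119, of 1006 bases) are multiples of 3. For most members the model thus appears to hold coding sequence, with the mapped start that of the coding region. A window of 300 bases (250 before the annotated start and 50 after it) was found in the RefSeq table for 31 of the 35 members, and 29 of these windows have ATG at the start. The windows were poor in G and C: their G+C content ranged from 28.7 to 49.0%, with a median of 37.0%, against a median of 56.7% over the windows of 16122 protein-coding genes. They held a median of 1 CpG (range 0 to 4), against 14. Most member windows lie at the coding start, while windows of genes in general lie at the annotated transcription start. The compared positions are therefore unlike. GATC, the site that Dam methylates and that reads the same on both strands, was present in 13 of the 31 windows (41.9%), against 46.3% of all windows.

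The windows of 4 members are shown, because they show 3 of the patterns described below: a single gene that was LAD in control embryos at both stages and not in siRif1 embryos (Tas2r134), the gene nearest the LAD border in the block that did the same (Tas2r114), the first gene of the block outside LADs (Tas2r120) and the gene that was LAD throughout (Tas2r119). They are from RefSeq on GRCm38.p6, 5′ to 3′ on the strand of the gene, with GATC in capitals.
Tas2r134, chr2:51627261-51627560, plus strand: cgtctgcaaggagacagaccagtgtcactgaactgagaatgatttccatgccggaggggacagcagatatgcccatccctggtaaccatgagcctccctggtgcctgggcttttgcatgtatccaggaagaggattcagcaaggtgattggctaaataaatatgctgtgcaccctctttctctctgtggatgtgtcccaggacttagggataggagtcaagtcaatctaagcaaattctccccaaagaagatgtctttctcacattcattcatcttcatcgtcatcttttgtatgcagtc
Tas2r114, chr6:131690014-131690313, minus strand: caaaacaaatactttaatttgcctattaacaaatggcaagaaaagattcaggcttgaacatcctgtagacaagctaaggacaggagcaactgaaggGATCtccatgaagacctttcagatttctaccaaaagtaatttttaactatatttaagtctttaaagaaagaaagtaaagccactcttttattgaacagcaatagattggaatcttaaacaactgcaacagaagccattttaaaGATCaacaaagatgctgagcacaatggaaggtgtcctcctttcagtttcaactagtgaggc
Tas2r120, chr6:132656707-132657006, plus strand: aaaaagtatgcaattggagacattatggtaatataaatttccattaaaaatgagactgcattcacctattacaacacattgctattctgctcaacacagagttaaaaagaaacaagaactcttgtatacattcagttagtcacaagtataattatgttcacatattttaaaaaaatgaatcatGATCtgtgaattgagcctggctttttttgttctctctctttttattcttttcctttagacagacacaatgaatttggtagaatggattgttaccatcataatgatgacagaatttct
Tas2r119, chr15:32177039-32177338, plus strand: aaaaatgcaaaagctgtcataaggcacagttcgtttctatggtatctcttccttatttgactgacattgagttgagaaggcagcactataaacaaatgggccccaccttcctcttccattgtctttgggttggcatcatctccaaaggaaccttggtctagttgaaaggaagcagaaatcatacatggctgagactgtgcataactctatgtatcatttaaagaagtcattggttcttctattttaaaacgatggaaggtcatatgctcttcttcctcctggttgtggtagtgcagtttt
The windows of Tas2r114 and Tas2r120 hold 2 and 1 GATC sites and those of Tas2r134 and Tas2r119 hold 0. Their G+C contents were 47.3% for Tas2r134, 35.3% for Tas2r114, 29.7% for Tas2r120 and 40.3% for Tas2r119. The state of a gene comes from 100-kb steps, each far longer than these windows.

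In the lists as deposited, bitter receptor genes were LAD most often in control 4-cell embryos and least often in siRif1 8-cell embryos. In siControl 4-cell embryos 17 of 35 were LAD (48.6%, all protein-coding genes 24.7%). In siRif1 4-cell embryos 10 were (28.6%, all genes 24.0%). At the 8-cell stage 14 were LAD in siControl (40.0%, all genes 26.3%) and 8 in siRif1 embryos (22.9%, all genes 24.2%). The share of bitter receptor genes was thus above that of all genes in both control lists and within 5 percentage points of it in both siRif1 lists, without replicates to give that distance an error. These shares average unlike loci. Of the 24 members of the largest cluster, 6, 0, 6 and 6 were LAD in the same order of lists. Of the 11 members elsewhere, 11, 10, 8 and 2 were. The order of the lists by count depends on the borders. With every LAD extended by 100 kb at each border, the counts in the same order of lists were 17, 11, 15 and 17. With LADs shortened by as much they were 11, 10, 8 and 1. The share of all genes with moved borders is not given here, so these counts cannot be read against the shares above. Over the 4 lists, 1 gene was LAD throughout (Tas2r119; all genes 9.66%), 12 were LAD in no list (34.3%; all genes 57.4%) and 22 changed state at least once (62.9%; all genes 32.9%). Such change was about as common in the other large chemosensory receptor families. It was found in 60.1% of vomeronasal type 1, 65.3% of type 2 and 59.8% of olfactory receptor genes. LAD in no list were 33.8, 24.0 and 25.2% of these families.

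**Figure D1:**
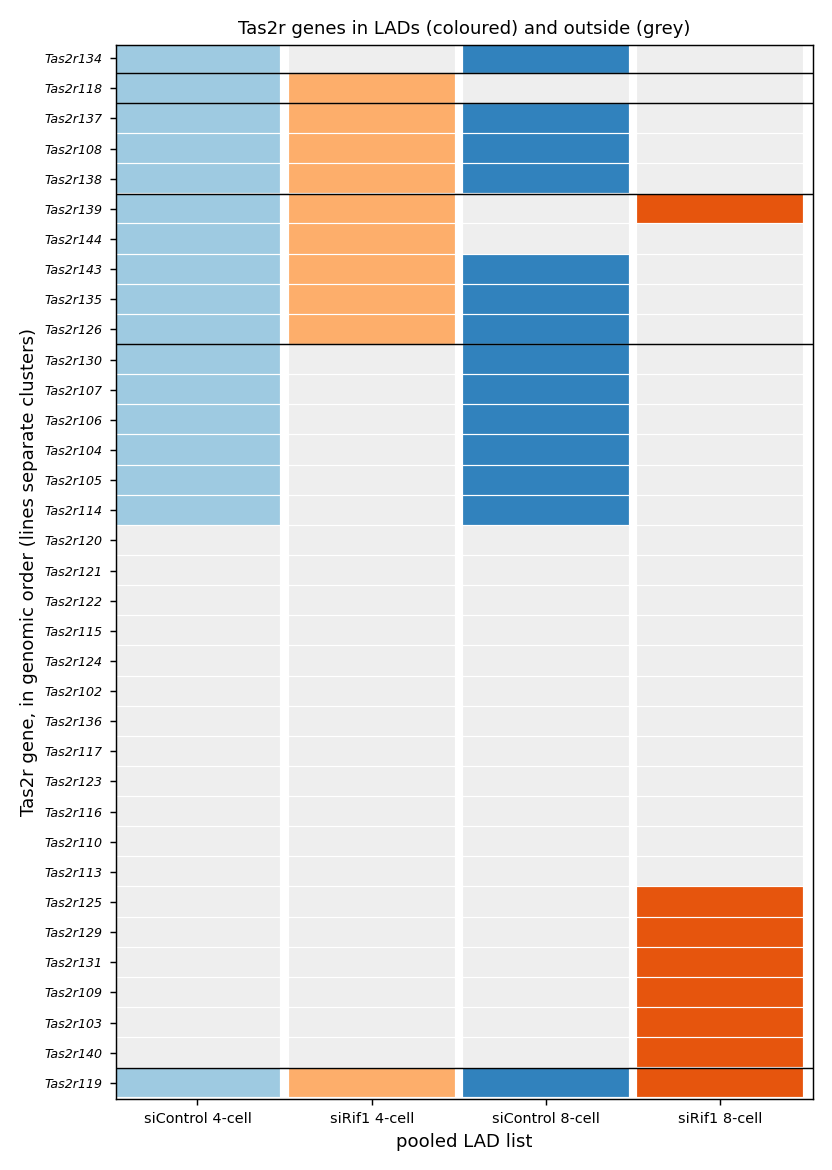
State of the 35 Tas2r genes (rows, in genomic order, clusters separated by lines) in the 4 pooled LAD lists (columns), with LAD coloured and outside LADs grey. The coloured cells number 17, 10, 14 and 8 from left to right, and in the last column 6 of the 18 genes from Tas2r120 to Tas2r140 are coloured.

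The 22 genes that changed fell into 5 patterns. LAD in both control lists and in neither siRif1 list were 7 genes: Tas2r134 and the centromere-side block of 6. LAD in all lists but siRif1 8-cell were 6 genes (17.1%, all genes 3.29%): Tas2r137, Tas2r108, Tas2r138, Tas2r143, Tas2r135 and Tas2r126. LAD in siRif1 8-cell embryos alone were 6 genes of the telomere-side block (17.1%, all genes 3.86%). Tas2r118 and Tas2r144 were LAD at the 4-cell stage in both groups and at the 8-cell stage in neither (5.71%, all genes 2.13%), and Tas2r139 was LAD in all lists but siControl 8-cell (2.86%, all genes 1.55%).

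At the 4-cell stage the comparison asks which of these genes change lamina association when Rif1 is depleted. The differences ran one way. LAD in siControl and not in siRif1 were 7 of the 35 members (20.0%, all genes 8.08%), and LAD in siRif1 and not in siControl were 0 (all genes 7.37%). The latter is 0 of the 18 members outside siControl 4-cell LADs, against 9.79% of all such genes. Of the 17 members in siControl LADs, 7 were outside siRif1 LADs (41.2%), against 32.7% of all genes in siControl LADs. These 7 genes lie in only 2 stretches that differ between the lists, one of 400 kb on chromosome 2 and one of 200 kb on chromosome 6, so the count rests on 2 loci.

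The centromere-side block gave 6 of the 7. It includes Tas2r105, whose receptor is activated by cycloheximide. In siControl 4-cell embryos a LAD of 0.6 Mb ran from 131100001 to 131700000 and took in the whole block in its last 100-kb step. In siRif1 4-cell embryos the LAD began at the same position and ended at 131500000. Inside the control LAD, the midpoints lay 69.6 kb from the border for Tas2r130, 40.4 kb for Tas2r107, 21.6 kb for Tas2r106, 14.7 kb for Tas2r104, 13.0 kb for Tas2r105 and 10.4 kb for Tas2r114. In siRif1 embryos the same genes lay 130 to 190 kb outside the nearest LAD. All 6 were therefore within 1 grid step of the control border, and with every LAD shortened by 100 kb at each border only Tas2r134 of the 7 remained LAD in siControl alone.

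Tas2r134 lies 444 kb from the Rif1 gene itself (chromosome 2, 52072815 to 52126769). In siControl 4-cell embryos it lay 372 kb inside a LAD of 3.6 Mb (48400001 to 52000000). In siRif1 4-cell embryos the nearest LAD was 0.3 Mb long (51300001 to 51600000), and Tas2r134 lay 28.0 kb beyond its end. The share of LAD in the 1 Mb around the gene was 87.2% in siControl and 30.0% in siRif1. Its neighbours on the telomere side, Rbm43 and the interferon-induced gene Nmi, were also LAD in siControl 4-cell embryos and outside LADs in siRif1.

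The remaining members did not change state at the 4-cell stage. Tas2r119, Tas2r118 and the 8 genes of the 2 smaller clusters were LAD in both groups. The small clusters sat deep in single LADs of 5.1 Mb in siControl (38700001 to 43800000) and 4.0 Mb in siRif1 (39900001 to 43900000), with midpoints at least 592 kb inside in both. The 18 genes of the telomere-side block were outside LADs in both, 957 to 1360 kb from the nearest LAD in siControl and 1160 to 1560 kb in siRif1. Measured by the 1 Mb around each gene, LAD coverage was lower in siRif1 than in siControl for 9 of 35 members (25.7%), higher for 0 and equal for 26, against 22.2% lower and 23.3% higher over all genes. The 26 were the 18 genes of the telomere-side block, at 0% in both lists, and the 8 of the small clusters, at 100% in both. The 8 could not be higher, and the 18 are 1 block.

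**Figure D2:**
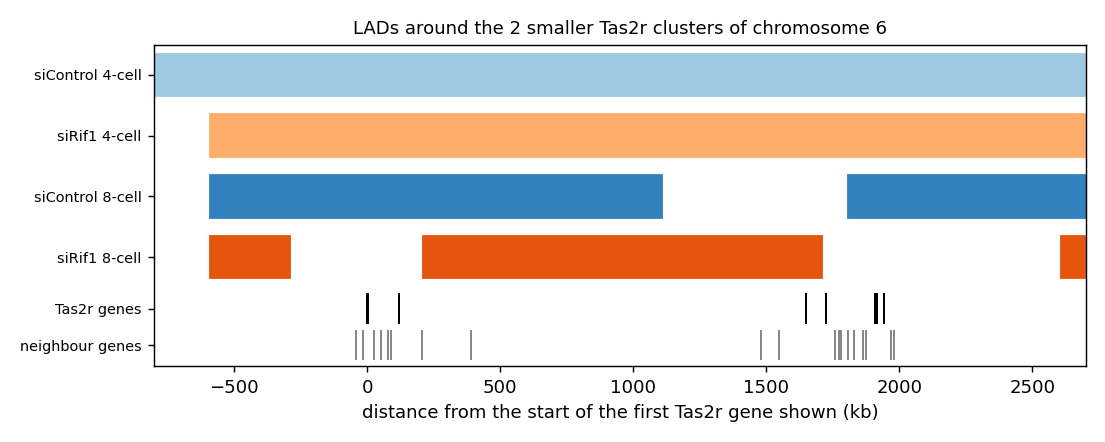
LADs (coloured bars, 1 row per pooled list) over the 2 smaller Tas2r clusters of chromosome 6, with Tas2r genes as black ticks and, in grey, the other genes inside each cluster and the nearest 2 on each side. The x axis is the distance in kb from the start of Tas2r137; bars reaching the left or right edge continue beyond it. Both 4-cell lists cover all 8 genes, siControl 8-cell has a gap over Tas2r139 and Tas2r144, and siRif1 8-cell has gaps over the other 6 and Tas2r144.

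At the 8-cell stage the same comparison showed changes in both directions. LAD in siControl and not in siRif1 were 13 members (37.1%, all genes 9.37%), and LAD in siRif1 and not in siControl were 7 (20.0%, all genes 7.33%). Of the 14 members in siControl 8-cell LADs, 13 were outside siRif1 LADs (92.9%, all genes 35.7%), and Tas2r119 was the exception. Of the 21 members outside siControl 8-cell LADs, 7 were LAD in siRif1 (33.3%, all genes 9.94%). With borders moved by 100 kb, LAD in siRif1 alone were 0 (LADs shortened) or 13 (extended) and LAD in siControl alone 7 or 11, so which direction held more genes turned when LADs were extended. The 13 genes lie in 4 differing stretches of 300 to 800 kb and the 7 in 2 stretches of 600 and 200 kb. The median length of such stretches over the genome was 300 kb in either direction.

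Tas2r137, Tas2r108 and Tas2r138 were in the first of these stretches (40200001 to 40700000). Tas2r108 encodes a receptor for denatonium, and Tas2r138 is the counterpart of the human receptor for phenylthiocarbamide. The midpoints lay 592 kb, 594 kb and 713 kb inside a 1.7-Mb LAD in siControl 8-cell embryos. In siRif1 8-cell embryos they lay in a gap between LADs ending at 40200000 and starting at 40700001, at 208 kb, 206 kb and 87.2 kb from a border. The other protein-coding genes between them, the serine protease gene Prss37, the odorant receptor genes Olfr461 and Olfr460 and the lectin gene Clec5a, had the same 4 states. The share of LAD in the 1 Mb around these 3 members was 100% in siControl and 50.0% in siRif1 8-cell embryos. These 3 genes were farther from a control border than any of the other 10, and their state held when borders were moved by 1 grid step except for Tas2r138, which lies 87.2 kb from the siRif1 border.

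The second small cluster was cut at different places in the lists. In siControl 8-cell embryos a gap ran from 41600001 to 42300000, so Tas2r139 and Tas2r144 were outside LADs while Tas2r143, Tas2r135 and Tas2r126 were 101 to 135 kb inside the next LAD. In siRif1 8-cell embryos a LAD of 1.5 Mb ended at 42200000 and the next began at 43100001. Tas2r139 was thus 58.6 kb inside a siRif1 LAD and Tas2r144 was 15.8 kb outside it. Tas2r143, Tas2r135 and Tas2r126 were 201 to 235 kb outside. Of the 7 other genes inside this cluster, 4 were LAD in siControl 8-cell embryos (the chloride channel gene Clcn1, Fam131b, the focal adhesion gene Zyx and the ephrin receptor gene Epha1). Gstk1, Tmem139 and Casp2, which encodes a caspase, were outside, and 0 of the 7 were LAD in siRif1 8-cell embryos. All 7 were LAD in both 4-cell lists.

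Tas2r134 on chromosome 2 repeated its 4-cell states. In siControl 8-cell embryos it lay 272 kb inside a LAD of 2.1 Mb (49800001 to 51900000). In siRif1 8-cell embryos a LAD of 4.0 Mb (47600001 to 51600000) ended 28.0 kb before it, at the same step as in siRif1 4-cell embryos. The share of LAD in the 1 Mb around it was 77.2% in siControl and 47.2% in siRif1. Its neighbours Rbm43 and Nmi did not repeat theirs and were outside LADs in both 8-cell lists. On the centromere side, Rnd3 was LAD in both 8-cell lists, though at the 4-cell stage in siControl alone. Mmadhc was LAD in all 4 lists.

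The largest cluster differed in both directions between siControl and siRif1 8-cell embryos. The centromere-side block was LAD in siControl, with the LAD (130800001 to 131700000) ending at the same 100-kb step as in siControl 4-cell embryos. In siRif1 embryos the LAD ended at 131400000, and the 6 genes lay 230 to 290 kb beyond it. In the telomere-side block, Tas2r125, Tas2r129, Tas2r131, Tas2r109, Tas2r103 and Tas2r140 lay in a LAD of 200 kb (132900001 to 133100000) that was present in siRif1 8-cell embryos alone. Its only protein-coding genes by midpoint were these 6. They were 10.1 to 80.5 kb from its borders, and Tas2r113, the next member, lay 6.53 kb outside it. With LADs under 300 kb left out, this LAD was removed and 2 members, Tas2r139 and Tas2r119, remained LAD in siRif1 8-cell embryos. Measured by the 1 Mb around each gene, LAD coverage was lower in siRif1 than in siControl 8-cell embryos for 14 of 35 members (40.0%), higher for 20 (57.1%) and equal for 1, against 27.8% lower and 22.5% higher over all genes. The higher values came from the telomere-side block and from Tas2r139 and Tas2r144, where the window held parts of LADs that miss some of the genes. The 18 genes of that block are 1 locus, and their share was 0 to 10.0% in siControl and 20.0% in siRif1 8-cell embryos.

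**Figure D3:**
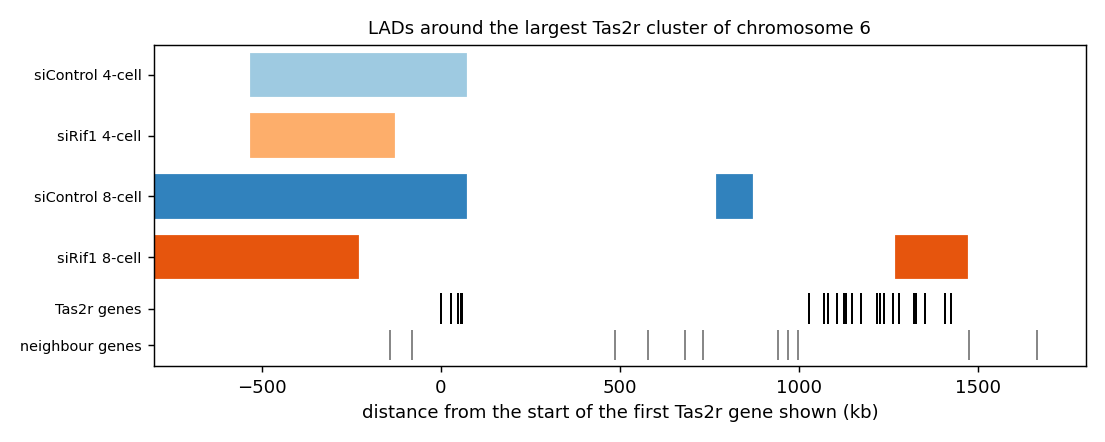
LADs (coloured bars, 1 row per pooled list) around the largest Tas2r cluster of chromosome 6, with Tas2r genes as black ticks and, in grey, the other genes between them and the nearest 2 on each side. The x axis is the distance in kb from the start of Tas2r130. The LAD on the left covers the first 6 genes in both siControl lists and ends before them in both siRif1 lists, and 6 of the last genes lie in a 200-kb LAD of siRif1 8-cell embryos.

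The 7 genes that were LAD in both control lists and outside both siRif1 lists make up 20.0% of the members, against 1.01% of all genes. Of the 14 members in both control lists, these 7 are 50.0%, against 6.7% of all 3046 genes in both control lists. The reverse pattern held for 0 members (all genes 0.983%). The 7 genes come from 2 loci, and at both the siRif1 border had a lower coordinate than in the control of the same stage: at 51600000 in both siRif1 lists, against 52000000 and 51900000 in the controls on chromosome 2, and at 131500000 and 131400000 against 131700000 in both controls on chromosome 6. With every LAD shortened by 100 kb at each border, the count was 1.

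Between the blocks of the largest cluster lie 7 other protein-coding genes, among them the salivary proline-rich protein genes Prb1, Prpmp5, Prh1 and Prp2. All 7 were outside LADs in the 4 lists, as were the next genes on the telomere side, Smim10l1 and 5530400C23Rik. On the centromere side 5430401F13Rik had the states of the block, and Gm6619 was LAD in all lists but siRif1 8-cell. The 12 members that were LAD in no list are the first 12 of the telomere-side block, Tas2r120 to Tas2r113. These 12 are 1 locus. They had 22 to 24 other protein-coding genes within 500 kb, against a median of 15 over all genes. That count includes the other members of their block, whose 18 genes lie within 399 kb. The 6 genes of the block that were LAD in siRif1 8-cell embryos had 22 or 23. The G+C content of the 8 with a start window was 28.7 to 36.3%, with a median of 29.7%. The 23 members that were LAD in at least 1 list had a median of 17 genes within 500 kb (range 1 to 29) and a median G+C content of 37.7% (range 30.7 to 49.0%), so the ranges overlap on both measures.

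**Figure D4:**
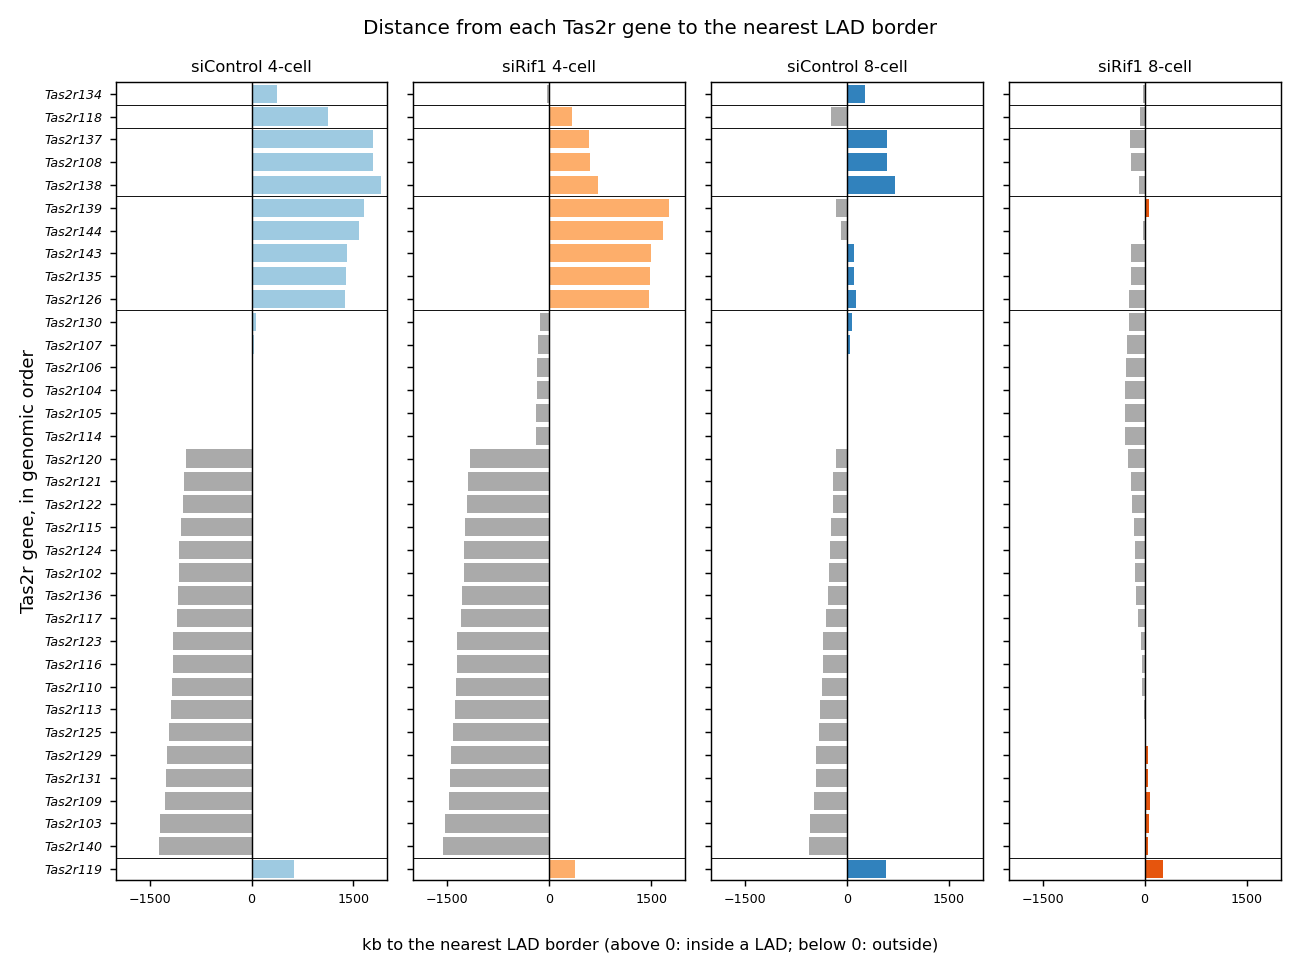
Distance in kb from the midpoint of each Tas2r gene (rows, in genomic order) to the nearest LAD border in each of the 4 pooled lists, with values above 0 inside a LAD (coloured) and below 0 outside (grey). The 6 genes from Tas2r130 to Tas2r114 sit within 69.6 kb of the border in both siControl lists, and the genes of the smaller clusters lie at least 592 kb inside LADs in both 4-cell lists.

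From the 4-cell to the 8-cell stage in control embryos, no bitter receptor gene came into a LAD. LAD at the 8-cell and not at the 4-cell stage were 0 of 35 (all genes 11.2%), which is 0 of the 18 members outside 4-cell LADs (all genes 14.8%). LAD at the 4-cell stage alone were 3 (8.57%, all genes 9.59%), which is 3 of the 17 in 4-cell LADs (17.6%, all genes 38.8%): Tas2r118, the counterpart of a human receptor for salicin, and Tas2r139 and Tas2r144. Tas2r118 lay 1130 kb inside a LAD of 3.4 Mb at the 4-cell stage and 230 kb outside one at the 8-cell stage. Its centromere-side neighbours Rnf133 and Rnf148 were LAD in all 4 lists, and on the other side the sulfate transporter gene Slc13a1 was LAD in both 4-cell lists alone and Iqub in siControl 4-cell embryos alone. Tas2r139 and Tas2r144 went from 1660 and 1580 kb inside to 159 and 84.2 kb outside. The 18 genes of the telomere-side block stayed outside, but a LAD of 100 kb (132400001 to 132500000) at the 8-cell stage brought the nearest border to 157 to 555 kb. The 18 genes are 1 block, so the count of 0 rests on 1 locus.

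The other large chemosensory families differed from the bitter receptors in this comparison. Of those outside siControl 4-cell LADs, 112 of 189 vomeronasal type 1 genes (59.3%), 78 of 108 type 2 genes (72.2%) and 418 of 829 olfactory receptor genes (50.4%) were LAD in siControl 8-cell embryos. In siControl 4-cell embryos the bitter receptors had the highest share in LADs of the 4 families, 48.6% against 17.1%, 10.7% and 24.7%, and in siControl 8-cell embryos the lowest, 40.0% against 66.2%, 75.2% and 58.8%. The pattern of LAD in both controls and outside both siRif1 lists was found in 6 of 228 type 1 (2.63%), 0 of 121 type 2 and 0 of 1101 olfactory receptor genes. Of genes in both control lists, the only ones that could show it, these were 6 of 39 (15.4%), 0 of 13 and 0 of 229. The bitter receptors had 7 of 14 (50.0%), and all genes 6.7%. The family values are shares of genes that lie in clusters, and no test of the differences between families was made.

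**Figure D5:**
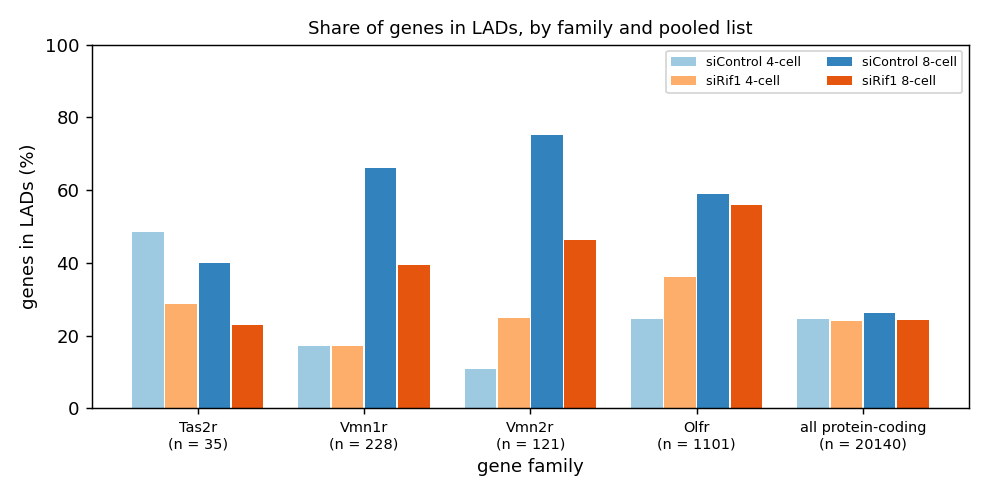
Percent of genes in LADs (y axis) for the Tas2r, Vmn1r, Vmn2r and Olfr families and all protein-coding genes (x axis, number of genes below each), with 1 bar per pooled list and no error, since each list pools its replicates. The Tas2r bars are 48.6, 28.6, 40.0 and 22.9%, and those of all genes lie between 24.0 and 26.3%.

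In siRif1 embryos the family changed in both directions between the stages. LAD at the 4-cell and not at the 8-cell stage were 8 members (22.9%, all genes 8.58%) in 3 stretches of 400 to 900 kb: Tas2r118, the cluster of Tas2r137, Tas2r108 and Tas2r138, and Tas2r144, Tas2r143, Tas2r135 and Tas2r126. LAD at the 8-cell stage alone were the 6 genes of the telomere-side block in the 200-kb LAD (17.1%, all genes 8.83%), which had been 1410 to 1560 kb from a LAD at the 4-cell stage. Of the 10 members in siRif1 4-cell LADs, 8 (80.0%, all genes 35.8%) had left and 2 were LAD at the 8-cell stage, Tas2r139 and Tas2r119. The 8 that left had been 330 to 1680 kb inside, and 5 of them lay over 200 kb outside at the 8-cell stage. With LADs shortened by 100 kb at each border, the 4-cell list alone held 9 and the 8-cell list alone 0, and with LADs extended they held 5 and 11.

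Tas2r119 was the member that stayed in LADs throughout. It encodes the counterpart of the human receptor TAS2R1 and lies next to the semaphorin gene Sema5a, which was also LAD in all 4 lists. The next gene on that side, the syndecan gene Sdc2, was LAD in all lists but siControl 4-cell. On the other side Atpsckmt was LAD in both controls and neither siRif1 list, and the chaperonin gene Cct5 in siControl 4-cell embryos alone. Its midpoint was 622 kb inside a LAD in siControl 4-cell, 378 kb in siRif1 4-cell, 578 kb in siControl 8-cell and 278 kb in siRif1 8-cell embryos. It was less deep in siRif1 than in siControl at both stages and, unlike the other members, had 1 other protein-coding gene within 500 kb.

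As regions, the 3 clusters with 500 kb on each side (4.84 Mb in all) were covered by LADs to 61.7% in siControl 4-cell, 57.5% in siRif1 4-cell, 50.1% in siControl 8-cell and 34.1% in siRif1 8-cell embryos. Chromosome 6 as a whole was covered to 39.5, 43.7, 37.3 and 46.8% in the same order, so the cluster regions had less LAD in siRif1 than in siControl at each stage and the chromosome more. The whole mapped span of chromosomes 1 to 19 was covered to 32.9, 43.5, 44.7 and 42.9%. The span thus had more LAD in siRif1 at the 4-cell stage and, like the cluster regions, less at the 8-cell stage. The region of the largest cluster was covered to 23.5, 15.3, 27.6 and 19.4%. The regions of Tas2r137 and of Tas2r139 with their clusters were fully covered in both 4-cell lists. At the 8-cell stage they were covered to 100% and 49.1% in siControl and 55.4% and 43.2% in siRif1 embryos.

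A list of other genes linked to taste, not limited to the bitter pathway, was counted in the same way. Of 29 symbols listed, 27 were placed. LAD in no list were 18 (66.7%, all genes 57.4%), 9 changed state (33.3%, all genes 32.9%) and 0 were LAD throughout (all genes 9.66%). In LADs were 5 in siControl 4-cell (18.5%, all genes 24.7%), 4 in siRif1 4-cell (14.8%, all genes 24.0%), 4 in siControl 8-cell (14.8%, all genes 26.3%) and 6 in siRif1 8-cell embryos (22.2%, all genes 24.2%). The sweet and umami receptor genes Tas1r1, Tas1r2 and Tas1r3, Plcb2, Itpr3, Calhm1 and Pou2f3, the regulator of type II taste cells, were outside LADs in the 4 lists. Gnat3 was LAD in all lists but siControl 4-cell. Trpm5 was LAD in siControl 8-cell embryos alone and Rgs21 in both 8-cell lists. Cd36, which encodes a fatty acid receptor, was LAD in both siRif1 lists and neither control, and Ffar4, another such receptor, in all lists but siRif1 8-cell. The sodium channel genes Scnn1b and Scnn1g were LAD in siControl 4-cell and siRif1 8-cell embryos, the purinergic receptor gene P2rx3 in siControl 4-cell embryos alone, and Sox2 in all lists but siControl 8-cell.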

How the data were processed

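LAD lists of 4 groups, each made from 3 DamID replicates, were analysed. The authors deposited start and end of each LAD on a 100-kb grid, made with Trimmomatic, Bowtie2, SAMtools and Picard on mm10 (GRCm38), per the submitters' processing notes. How LADs were called, and whether unfused Dam was used as a control, is not given in the sources used here; read depth is unknown. The score field deposited by the authors is 0 throughout and was not used.

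Genes came from RefSeq GRCm38.p6, leaving out 333 of 47038 entries on scaffolds. Midpoints were placed in LADs as deposited (Python 3.11.15, pandas 2.3.3), and the placement was tested on simulated intervals. Strand and start windows came from a RefSeq promoter table. Coordinates are 1-based. The members and lists were chosen with earlier results of these data known. Every member may be named; other genes were named by a rule: neighbours in a cluster, the nearest 2 on each side (some are not reported here), and taste genes in a LAD; taste genes named as outside LADs were chosen after their values were seen. The blocks of the largest cluster and the count over both stages were defined after the values were seen. Alternatives were LAD length, gaps, borders, gene placement, region flanks and leaving out the largest cluster.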

Additional observations from a re-analysis of the deposited data

How the results depend on the processing

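No paired analysis was possible because each list pools its replicates, and leaving out a replicate was not possible either. Counts by the whole gene body, any base of it or the annotated start, and with gaps of up to 200 kb bridged, stayed within 1.5 times their main values, as did the 6 loci with members up to 3 Mb apart (5). With LADs shortened by 100 kb at each border, members in LADs numbered 11 in siControl 4-cell, 8 in siControl 8-cell and 1 in siRif1 8-cell. LAD in siControl and not in siRif1 were 1 at the 4-cell and 7 at the 8-cell stage, and 1 at both; LAD in siRif1 8-cell were 0 not in siControl 8-cell and 0 not in siRif1 4-cell. With LADs extended by 100 kb, 17 were LAD in siRif1 8-cell, 13 of them not in siControl 8-cell and 11 not in siRif1 4-cell, and 5 were LAD in siRif1 4-cell and not 8-cell. With LADs of at least 300 kb only, 2 were LAD in siRif1 8-cell, 1 not in siControl 8-cell and 0 not in siRif1 4-cell. The share of all genes in these altered lists is not given here. Without the largest cluster, which leaves 11 members, 11 were LAD in siControl 4-cell, 10 in siRif1 4-cell, 8 in siControl 8-cell and 2 in siRif1 8-cell. LAD in siControl and not siRif1 were then 1 and 7 at the 4-cell and 8-cell stage, and 1 at both. Of those LAD in siRif1 8-cell, 1 was not in siControl 8-cell and 0 were not in siRif1 4-cell. Coverage of the cluster regions with no flank was 26.4% in siControl 4-cell, 22.6% in siRif1 4-cell, 23.2% in siControl 8-cell and 11.7% in siRif1 8-cell embryos, and without the largest cluster 100%, 100%, 72.7% and 48.9%.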
